A study of Mus musculus with 6 samples.

Results

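The complement genes described here are C3, C4b, C1ra, C1s and Cfb, which encode components of the cascade, Cd55, Cd59a and Serping1, which encode its inhibitors, and Clu, which encodes clusterin. They were chosen by gene symbol, with earlier results of these data known. They make up 9 of the 19730 rows of the expression table, with 1 row each. RNA-Seq was done on primary mouse mesangial cells, the contractile cells that hold the capillary loops of the kidney glomerulus. The 3 Control libraries came from cells without added TGF-β1, and the 3 TGF-β1 libraries came from cells given transforming growth factor beta 1 at 10 ng/ml for 72 h. Both groups were grown with 25.5 mM glucose, a high concentration, and 20% foetal bovine serum, and were used at passages 3 to 6. The strain and age of the donor mice are not given in the sources used here. The labels do not say that the libraries of a group came from separate cultures, so the p-values measure only the spread between these libraries.

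Complement is a cascade of secreted proteases and their substrates that marks surfaces for removal and can perforate membranes. The classical pathway starts when C1r cleaves C1s and C1s cleaves C4, the alternative pathway runs through factor B, and all pathways meet at C3. Host cells limit the cascade with membrane proteins such as CD55 and CD59 and with fluid-phase inhibitors such as C1 inhibitor (Serping1) and clusterin. Most circulating complement is made in the liver, and kidney cells also make several components.

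Levels are FPKM, fragments per kilobase of transcript and M (mega) mapped fragments, so they can be compared between genes. The recovered depth was 10.1 to 11.1 M fragments per library, and an FPKM of 1 in C3 therefore rested on at least 49.9 fragments. Log2 changes are TGF-β1 minus Control on log2(FPKM + 1), which understates the change of low genes. Each was tested with limma across all rows, and an adjusted p under 0.05 was called a change. In bulk RNA, fewer cells of a type and less RNA per cell cannot be told apart. In the correlation between libraries, Pearson's r of log2(FPKM + 1) was 0.876 to 0.940 within groups and 0.818 to 0.853 between them. The lowest value within Control was that of replicates 2 and 3, and within TGF-β1 that of replicates 2 and 3 also.

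Expression of 6 of the 9 genes fell with TGF-β1, namely C3, C4b, C1ra, C1s, Serping1 and Clu, and none rose. Among all 19730 rows, 16.0% were called lower and 14.6% higher without a filter on low values. Cfb, Cd55 and Cd59a did not pass the test. The median log2 change of the 9 genes was -1.26, against -0.03 over all rows. This contrast only describes a list chosen with earlier results of these data known. The values of the groups did not overlap for 8 of the genes, with 7 lower and 1 higher after TGF-β1, where 23.6% and 20.5% of all rows lay apart in those directions (29.5% and 29.9% of the rows with a mean FPKM of 1 or more). The mean FPKM over the 6 libraries reached 1 for 6 of the 9 genes. C4b, Serping1 and Cd55 did not reach it and were taken from the same test without that filter. C3 and C1ra reached it through their Control values alone.

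**Figure D1:**
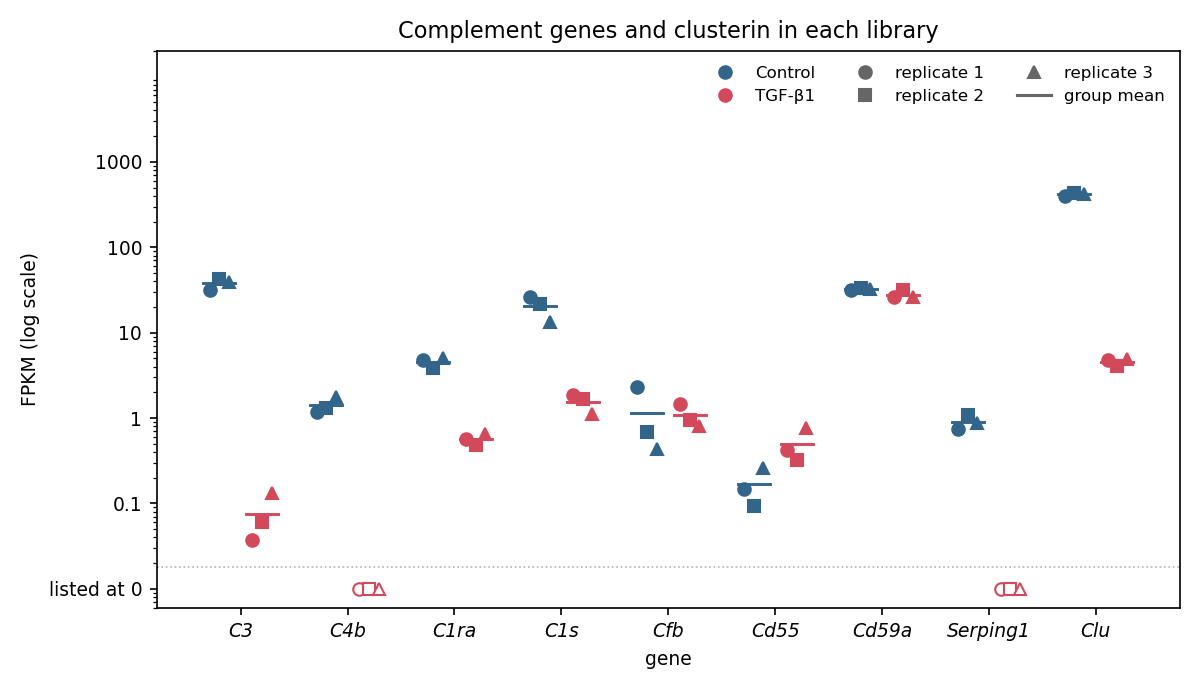
FPKM on a log axis for each of the 9 genes, with 1 point per library, blue for Control and red for TGF-β1, and a bar at each group mean. Open symbols under the dotted line mark genes listed at 0, which were C4b and Serping1 in all 3 TGF-β1 libraries, and Clu stands out with 415.46 in Control against 4.59 with TGF-β1.

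C3 encodes the central protein of the cascade, whose cleavage products coat targets and attract leukocytes. Its FPKM was 31.4, 42.3 and 39.3 in Control replicates 1 to 3, and 0.0370, 0.0600 and 0.131 in TGF-β1 replicates 1 to 3. The lowest Control library stood far above the highest TGF-β1 library. The mean fell from 37.7 ± 5.62 to 0.0761 ± 0.0491 (n = 3 each, SD). This was a log2 change of -5.16 (limma adjusted p = 4.41e-06, SE 0.13). The TGF-β1 values rested on about 2, 3 and 7 fragments, against 1717 to 2307 in Control. Pooled over libraries, 6111 fragments in Control and 12 with TGF-β1 gave a level 494-fold lower, with an exact 95% interval of 283- to 956-fold that covers counting error only. The gene lies at chr17:57343397-57367559 on mm9, on the minus strand, and its transcript shared no 50-base stretch with another gene.

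C4b encodes complement C4, which C1s cleaves. Its FPKM was 1.16, 1.31 and 1.75 in the Control libraries, and it was listed at 0 in all 3 TGF-β1 libraries. The Control values rested on about 67, 75 and 97 fragments. The log2 change was -1.26 (limma adjusted p = 0.000463, SE 0.10), and a fold against a group listed at 0 is not given. C4b at chr17:34865325-34880827 (mm9) has a near copy, C4a, with which 35.2% of its 50-base stretches were identical, so the split of fragments between the pair is uncertain. Their sum was 2.91, 6.00 and 7.17 FPKM in Control and 1.04, 0.630 and 0.281 with TGF-β1. The sum was thus higher in every Control library too.

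C1ra and C1s encode the serine proteases of the C1 complex, and lie close together at chr6:124462423-124473458 (plus strand) and chr6:124480363-124586998 (minus strand) on mm9. C1ra was at 4.83, 3.84 and 5.02 FPKM in Control and at 0.572, 0.488 and 0.652 FPKM with TGF-β1. The groups did not overlap, and the mean was 8.0-fold lower, from 4.57 ± 0.636 to 0.571 ± 0.0816 (n = 3 each, SD). The log2 change was -1.82 (limma adjusted p = 0.000132, SE 0.13). C1s was at 25.9, 21.5 and 13.5 FPKM in Control and at 1.86, 1.69 and 1.12 FPKM with TGF-β1. Replicate 3 was the lowest library in both groups, and no TGF-β1 value approached a Control value. The mean fell 13.0-fold, from 20.3 ± 6.32 to 1.56 ± 0.387, with a log2 change of -3.02 (limma adjusted p = 0.000221, SE 0.25). Within libraries, the ratio of C1s to C1ra was 2.68 to 5.60 in Control and 1.72 to 3.47 with TGF-β1, so these ranges overlapped. C1ra shared 47.5% of its 50-base stretches with C1rb and C1s shared 24.3% with Gm5077, both not analysed here, so part of either level may belong to the copy.

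Sequences just before the start sites of C3 and C1s are shown because both fell and both hold the letters TTGCNNAA, a C/EBP-type motif, and that of C1ra because it fell beside C1s without holding them. They are the 250 bases before the RefSeq start on GRCm38.p6, read 5′ to 3′ on the gene's strand, with the match in capitals. C3 lies at chr17:57228137-57228386 (minus), C1s, listed by RefSeq as C1s1, at chr6:124542360-124542609 (minus), and C1ra at chr6:124512371-124512620 (plus).
C3: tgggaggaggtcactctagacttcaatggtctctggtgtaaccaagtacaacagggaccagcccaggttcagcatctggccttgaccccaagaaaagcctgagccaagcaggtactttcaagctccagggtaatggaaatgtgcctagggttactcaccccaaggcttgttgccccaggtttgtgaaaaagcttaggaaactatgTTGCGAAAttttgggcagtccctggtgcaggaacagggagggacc
C1s: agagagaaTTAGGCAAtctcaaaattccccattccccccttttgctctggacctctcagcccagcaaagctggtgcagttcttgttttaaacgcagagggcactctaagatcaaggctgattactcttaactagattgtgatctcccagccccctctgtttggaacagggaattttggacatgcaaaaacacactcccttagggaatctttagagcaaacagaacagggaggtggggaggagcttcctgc
C1ra: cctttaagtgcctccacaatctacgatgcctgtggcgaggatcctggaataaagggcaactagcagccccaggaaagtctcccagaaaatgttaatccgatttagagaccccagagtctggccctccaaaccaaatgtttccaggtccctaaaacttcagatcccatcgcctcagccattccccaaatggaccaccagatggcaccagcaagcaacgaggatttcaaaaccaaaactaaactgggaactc
The match in C3 spans bases 45 to 38 before the start on the gene's own strand, and that in C1s spans bases 242 to 235 before the start on the opposite strand. On either strand, TTGCNNAA occurred in 9.56% of 32851 RefSeq promoter windows of that length. Of the 9 genes, 5 had an entry, and the windows of C1ra, Cd55, Cd59a and the other listed start of C1s held no match. None of the windows of these 5 genes held TTCNNNGAA (GAS element, in 7.02% of all windows), TGANTCA (AP-1, 6.75%), TATAAA (12.4%), CCAAT (33.8%), GTCTAGAC (SMAD element, 0.167%) or the NF-kappaB motif (3.9%). A match is a description of letters and not of a bound site.

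Cfb encodes factor B, the protease of the alternative pathway. Its FPKM was 2.31, 0.688 and 0.436 in the Control libraries and 1.48, 0.962 and 0.818 in the TGF-β1 libraries. The groups overlapped, because Control replicate 1 was the highest of the 6 libraries and Control replicate 3 the lowest. The mean was 1.15 ± 1.02 in Control and 1.09 ± 0.349 with TGF-β1 (n = 3 each, SD). The log2 change was 0.05 with a 95% interval of -0.76 to 0.85 (limma adjusted p = 0.921), and this interval is wide enough to hold changes in either direction. The gene at chr17:34993319-34999463 (mm9) overlaps Gm20547 on the same strand, and 81.4% of its 50-base stretches recur in another gene model. The ratio of C3 to Cfb was 13.6, 61.5 and 90.1 in the Control libraries and 0.0250, 0.0624 and 0.160 in the TGF-β1 libraries. Added together, C3, C4b, C1ra, C1s and Cfb came to 65.1 ± 4.90 FPKM in Control and 3.29 ± 0.618 FPKM with TGF-β1.

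Serping1 encodes C1 inhibitor, which inactivates C1r and C1s. Its FPKM was 0.748, 1.10 and 0.887 in Control, on about 13, 19 and 15 fragments, and it was listed at 0 in all 3 TGF-β1 libraries. The log2 change was -0.93 (limma adjusted p = 0.000559, SE 0.08), and no fold is given. The inhibitor of C1 was thus lower in the same libraries in which both C1 proteases were lower. It lies at chr2:84605544-84615601 (mm9) and shared no 50-base stretch with another gene.

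Cd55 encodes decay-accelerating factor, which takes C3 convertases apart on the cell surface. Its FPKM was 0.148, 0.0934 and 0.262 in the Control libraries and 0.422, 0.321 and 0.763 in the TGF-β1 libraries. Every TGF-β1 library lay above every Control library, on about 8 to 19 against 2 to 7 fragments. The log2 change was 0.36 with a 95% interval of 0.05 to 0.66, and it did not pass the test (limma adjusted p = 0.0787, SE 0.12). With quantile normalization it did, at 0.47 (limma adjusted p = 0.0280). The near copy of Cd55, Daf2, shares 13.3% of its 50-base stretches and was not analysed here.

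Cd59a encodes a membrane-anchored inhibitor of the terminal attack complex. Its FPKM was 31.7, 33.4 and 32.3 in the Control libraries and 26.4, 31.2 and 25.9 in the TGF-β1 libraries. The groups just failed to overlap, since TGF-β1 replicate 2 came close to Control replicate 1. The mean was 32.4 ± 0.869 in Control and 27.8 ± 2.97 with TGF-β1, a log2 change of -0.22 with a 95% interval of -0.44 to 0.01 (limma adjusted p = 0.0994, SE 0.09). Without TGF-β1 replicate 2 the change passed the test at -0.30 (limma adjusted p = 0.0269), and with scaling to the summed FPKM of protein-coding genes it passed at -0.41 (limma adjusted p = 0.0174). That scaling also moved the median of all tested rows to -0.19.

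Clu encodes clusterin, a secreted chaperone that binds the terminal complex in the fluid phase and is abundant in injured kidney. It was the most abundant of the 9 genes in Control, at 393.67, 431.44 and 421.27 FPKM. With TGF-β1 it was at 4.78, 4.11 and 4.87 FPKM, on 67 to 85 fragments against 7028 to 7685 in Control. The groups were far apart and each was tight. The mean fell 90.6-fold, from 415.46 ± 19.5 to 4.59 ± 0.415 (n = 3 each, SD), with a log2 change of -6.22 (limma adjusted p = 8.73e-07, SE 0.09). By size of log2 change Clu ranked 3 among the 2810 rows called lower, and C3, C1s and C1ra ranked 9, 53 and 199. The order depends on the pseudocount, since with 0.1 in place of 1 the log2 change of C3 was -7.77 and that of Clu -6.47. Clu lies at chr14:66587320-66600385 (mm9) and shared no 50-base stretch with another gene.

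**Figure D2:**
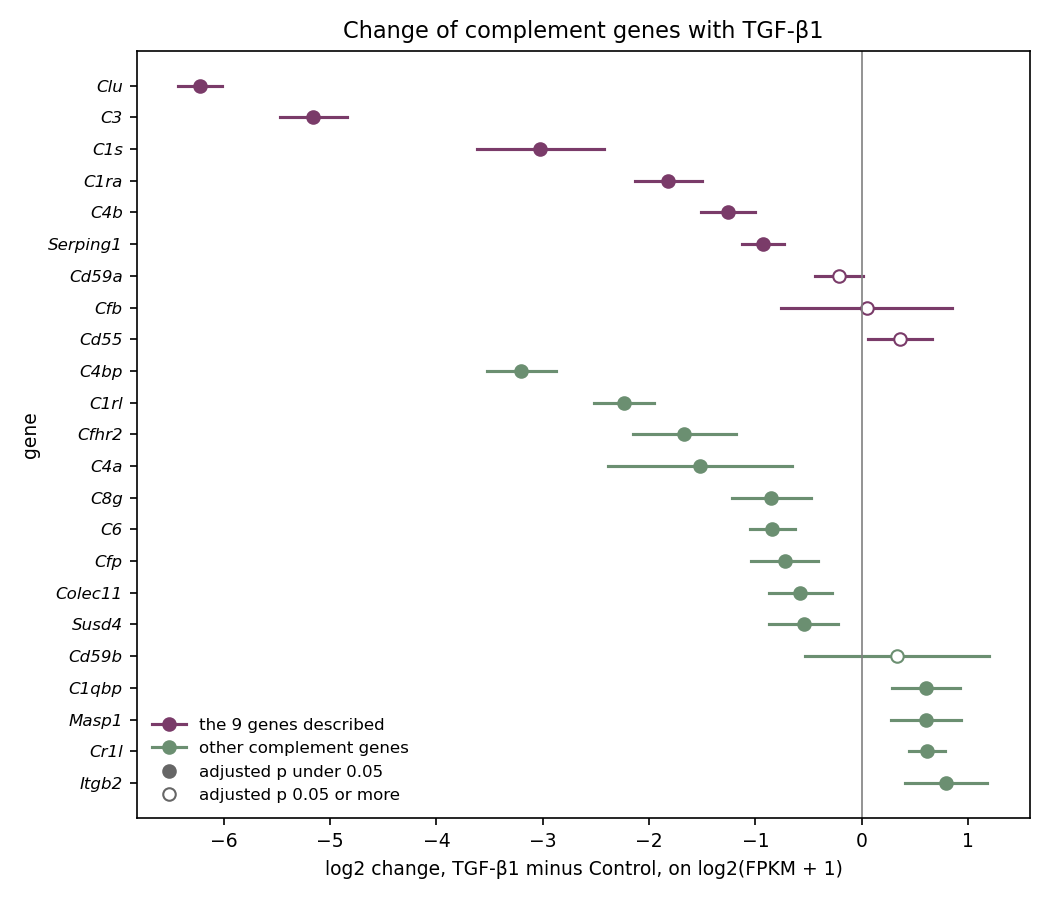
Log2 change (TGF-β1 minus Control on log2(FPKM + 1), n = 3 each) with its 95% interval, for the 9 genes in purple and for other complement genes in green, filled where the limma adjusted p was under 0.05. Clu at -6.22 and C3 at -5.16 lie farthest to the left, the open points are Cd59a, Cfb, Cd55 and Cd59b, and Itgb2 at 0.79 lies farthest to the right.

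The order of the 9 genes by FPKM differed between the groups. In Control, Clu came first, followed by C3 and Cd59a, whose values overlapped, then C1s and C1ra, each apart from its neighbours. Cfb came after these with a range that overlapped both C4b and Serping1, and Cd55 was the lowest. With TGF-β1, Cd59a came first and Clu followed it. C1s and Cfb overlapped each other below them, then came C1ra and Cd55, which also overlapped, and C3 lay above only the genes listed at 0. The ratio of Cd59a to Clu within a library was 0.0766 to 0.0804 in Control and 5.31 to 7.60 with TGF-β1.

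Ranks within a library do not depend on scaling between libraries. Ranked with 15913 protein-coding rows, each 300 nt or longer, Clu stood at the 98.7th to 98.9th percentile in Control and at the 47.4th to 49.1st with TGF-β1. C3 moved from between the 82.5th and 87.1st percentile to between the 14.7th and 20.7th. Cd59a stayed within the 78.9th to 83.7th percentile in all 6 libraries. Cd55 was at the 16.9th to 22.7th percentile in Control and at the 26.6th to 31.6th with TGF-β1.

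**Figure D3:**
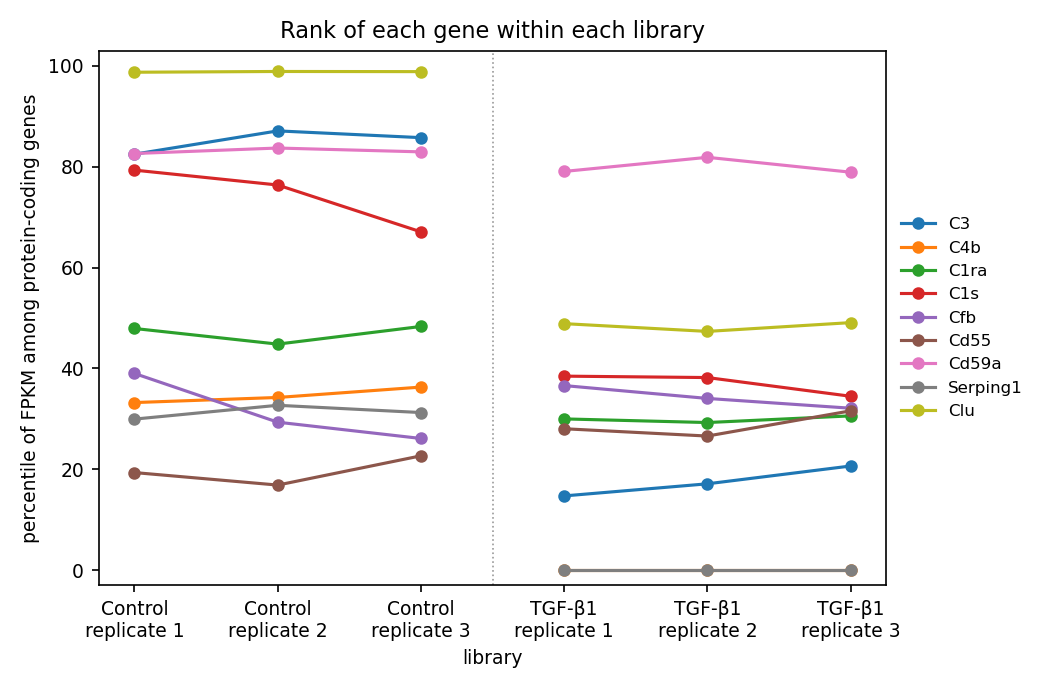
Percentile of FPKM among protein-coding genes (y axis) in each of the 6 libraries (x axis), with 1 line per gene and group. The lines of Clu and C3 drop from above 80 in Control to below 50 with TGF-β1, Cd59a stays near 80, and C4b and Serping1 lie on each other at 0 with TGF-β1.

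The rest of the complement system was read from a list of 63 symbols, of which 39 had a row and 30 of these lay outside the 9 genes. Without a filter, 9 of the 30 were lower and 4 higher, beside 16.0% and 14.6% of all rows, and their median log2 change was -0.09. The mean FPKM reached 1 in 9 of the 30, of which 5 were lower, 3 higher and 1 not called, where 23.6% and 24.5% of all 11898 rows with that mean were lower and higher. Of those 5, C1rl, C4a, C4bp and Cfhr2 reached that mean through their Control values alone. C1rl, which encodes a C1r-like protease, and C4a, the near copy of C4b, were both lower. C1rl fell from 4.14 ± 0.344 to 0.0886 ± 0.0357 FPKM, a log2 change of -2.24 (limma adjusted p = 4.3e-05). C4a fell from 3.95 ± 1.95 to 0.649 ± 0.378 FPKM, with a log2 change of -1.52 (limma adjusted p = 0.0139) that lost its call when replicate 2 of both groups was left out. Cfp, which encodes properdin, the stabilizer of the alternative convertase, fell from 15.5 ± 1.79 to 8.99 ± 1.34 FPKM (limma adjusted p = 0.00513, log2 change -0.73).

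Of 8 secreted regulators with a row, Clu and Serping1 included, 4 were lower and none higher without a filter. Over all rows these shares were 16.0% and 14.6%. With Clu and Serping1 left out, 2 of 6 were lower. C4bp, which encodes the C4b-binding protein, fell 41.9-fold, from 10.4 ± 0.632 to 0.249 ± 0.181 FPKM (limma adjusted p = 2.15e-05, log2 change -3.20). Cfhr2 fell from 3.00 ± 0.969 to 0.240 ± 0.115 FPKM (limma adjusted p = 0.000984, log2 change -1.67). Cfi, Cpn1, Vtn and Cfhr3 were not called, and Cpn1, the most abundant of these, was at 0.960 FPKM in Control and 1.01 FPKM with TGF-β1 on average. Without Clu and Serping1 the summed level of the list was 13.2 to 16.1 FPKM in Control and 1.69 to 2.01 FPKM with TGF-β1.

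Of 3 tested membrane regulators, Cd59a included, 1 rose and none was called lower. Over all rows tested, 24.5% were higher and 23.6% lower. Cr1l, which encodes Crry, the rodent inhibitor of C3 convertases, rose from 22.9 ± 0.790 to 35.5 ± 1.10 FPKM (limma adjusted p = 0.000816, log2 change 0.61). Cd59b, the near copy of Cd59a, was at 0.542, 2.02 and 1.30 FPKM in Control and at 2.18, 2.75 and 0.781 FPKM with TGF-β1, which overlapped (limma adjusted p = 0.480). Cd55, Cd59a and Cr1l together came to 55.5 ± 1.44 FPKM in Control and 63.8 ± 3.84 FPKM with TGF-β1. This small difference depends on scaling. With scaling to the summed FPKM of protein-coding genes, the log2 change was 0.42 for Cr1l (limma adjusted p = 0.00669) and -0.41 for Cd59a (limma adjusted p = 0.0174). The sum was not recomputed with that scaling. Masp1, a protease of the lectin pathway, rose from 3.64 ± 0.324 to 6.10 ± 1.11 FPKM (limma adjusted p = 0.0122, log2 change 0.60). C1qbp, a mostly mitochondrial protein that can bind C1q, rose from 55.3 ± 8.97 to 83.9 ± 6.55 FPKM (limma adjusted p = 0.0106, log2 change 0.60). The call of C1qbp was lost when replicate 2 of both groups was left out (limma adjusted p = 0.0664, log2 change 0.46). It was also lost with scaling to the protein-coding sum (limma adjusted p = 0.0504, log2 change 0.41), where Masp1 kept its call (limma adjusted p = 0.0465, log2 change 0.44).

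Among genes with a mean FPKM under 1, the test without the filter called 5 more outside the 9 genes. The terminal components C6 and C8g were lower, with log2 changes of -0.84 and -0.85 (limma adjusted p = 0.00101 and 0.00846). Colec11, a lectin that starts the lectin pathway, and Susd4, a membrane regulator, were lower by log2 changes of -0.58 and -0.55 (limma adjusted p = 0.0154 and 0.0257). Itgb2, the beta chain of leukocyte integrins and of the complement receptors that contain it, was higher by 0.79 (limma adjusted p = 0.0125). The calls of Colec11, Susd4 and Itgb2 were each lost when some single libraries were left out, and that of C8g when replicate 2 of both groups was.

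Complement genes of non-hepatic cells are known to be induced along with acute-phase genes by interferon-gamma, interleukin-1, tumour necrosis factor and the interleukin-6 family. The acute-phase list read here also holds cytokine, chemokine and signalling genes, such as Il6, Cxcl1 and Tnfaip3. Of its 22 genes with a row, 14 were lower and 2 higher without a filter, with a median log2 change of -0.87. Over all rows, 16.0% were lower and 14.6% higher. The mean FPKM reached 1 in 13 of them, of which 12 were lower and 1 higher, but several of the 12, Hp, Lbp, Cxcl1 and Fgb among them, reached it through Control alone. Hp, which encodes haptoglobin, went from 11.5 to 18.4 FPKM in the Control libraries to 0 to 0.0865 FPKM in the TGF-β1 libraries (limma adjusted p = 2.66e-05, log2 change -3.94). Lbp, Cxcl1 and Fgb, which encode lipopolysaccharide-binding protein, a neutrophil chemokine and the fibrinogen beta chain, fell with log2 changes of -2.93, -2.42 and -2.34 (limma adjusted p = 0.000265, 0.00279 and 3.78e-05). Tnfaip3, which encodes an NF-kappaB inhibitor, rose from 1.96 ± 0.440 to 16.99 ± 1.597 FPKM (limma adjusted p = 4.37e-05, log2 change 2.61). Without the filter Il6, named after its values were seen, was also called higher, being listed at 0 in Control and at 1.34 to 2.29 FPKM after treatment (limma adjusted p = 0.00097).

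Receptors and factors through which complement genes are known to be induced moved in both directions, and induction itself was not tested here. Of 18 tested, 9 were lower, 4 higher and 5 not called, with a median log2 change of -0.32, where 23.6% and 24.5% of all rows tested were lower and higher, so the share that was higher is near that of all rows. Osmr, the oncostatin M receptor, fell 8.47-fold from 52.2 ± 2.26 to 6.17 ± 0.480 FPKM (limma adjusted p = 6.94e-06, log2 change -2.89). Il6st, the shared gp130 chain of that family, fell from 43.8 ± 6.50 to 14.1 ± 0.592 FPKM (limma adjusted p = 0.000166, log2 change -1.56). Il1r1 and Lifr, the receptors for interleukin-1 and leukaemia inhibitory factor, fell with log2 changes of -1.34 and -1.16 (limma adjusted p = 0.000486 and 0.000452). Both reached a mean FPKM of 1 through their Control values alone. Without a filter, 8 of the 18 genes were lower and 4 higher, beside 16.0% and 14.6% of all rows. Ifngr1, the interferon-gamma receptor, rose from 104.4 ± 12.2 to 221.4 ± 13.6 FPKM (limma adjusted p = 0.000443, log2 change 1.08).

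**Figure D4:**
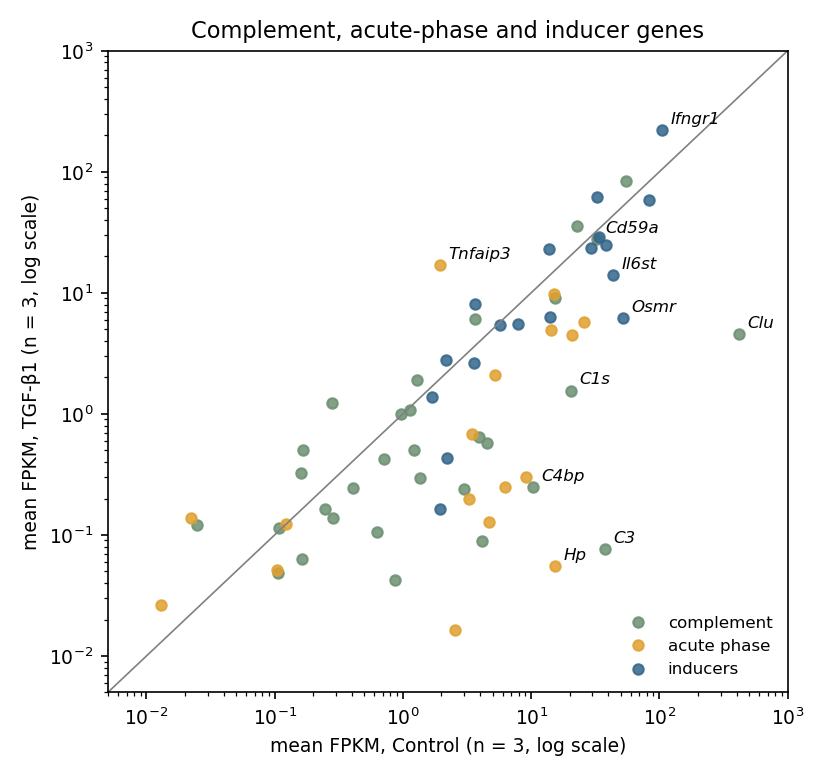
Mean FPKM with TGF-β1 (y axis) against Control (x axis), both log scales, for 66 complement, acute-phase and inducer genes, with a line where both are equal; 13 genes listed at 0 in every library of a group are not drawn. Clu, C3, C4bp and Hp lie far below the line, and Tnfaip3 and Ifngr1 lie above it.

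The genes whose pattern over the 6 libraries was most like that of C3 were Keg1, Ntm, Sned1, Snx33 and Itih2, by Pearson's r of log2(FPKM + 1). Those most like Clu were Agt, which encodes angiotensinogen, Clip4, Amot, Inmt and Cldn2. All 10 were lower with TGF-β1, which choosing them by likeness to C3 and Clu had fixed in advance. Agt went from 74.2 to 0.220 FPKM on average. The 6 points form 2 separate groups, and 323 of 10839 rows compared had an r over 0.99 with C3, so the ranking separates these genes little from many others.

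Genes next to the complement genes were read within 100 kb on mm9. Beside C4b, 5 of 6 tested protein-coding neighbours that are not complement genes were lower, with log2 changes over the 6 from -1.74 to -0.57, while C4b itself changed by -1.26. The neighbour at -1.74, Prrt1, reached a mean FPKM of 1 through its Control values alone. Over all rows tested, 23.6% were lower and 24.5% higher. Beside C3, none of 4 tested neighbours was called, with log2 changes from -0.25 to 0.37. Cfb, which did not pass the test, had 4 lower of 8 tested neighbours, some of them shared with C4b. The only neighbour of Clu with more than trace levels, Scara3, was at 1.93 FPKM in Control and 0.0096 FPKM with TGF-β1 on average (log2 change -1.54).

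Markers of the cells were read beside these results. Of 9 mesangial markers, 5 were tested, and 1 was lower, 3 higher and 1 not called. Over all rows tested, 23.6% were lower and 24.5% higher. Pdgfrb was lower, at 37.5 ± 4.83 FPKM in Control and 29.2 ± 0.751 FPKM with TGF-β1, and Gata3 was not called. Acta2, Tagln and Vim were higher, with Tagln going from 512 to 1756 FPKM and Vim from 2191 to 3436 FPKM. Without the filter Pdgfrb lost its call and Cspg4 was higher, from 0.0735 to 1.21 FPKM (limma adjusted p = 0.0531 and 0.000951). Itga8, Thy1 and Des did not exceed 0.174, 0.180 and 0.550 FPKM in any library. The 9 mesangial markers summed to 3328 to 3980 FPKM in Control and to 8883 to 9464 FPKM with TGF-β1 and within that sum Acta2 went from 997.1 to 3887 FPKM on average. Of 9 macrophage markers, 6 had a row, 3 were tested and 2 of them were lower, Cd14 from 94.3 to 7.71 FPKM and Csf1r from 6.27 to 0.411 FPKM, while Ptprc and Lyz2 were at or near 0 in all libraries. That list summed to 87.0 to 113.8 FPKM in Control and to 9.03 to 11.3 FPKM with TGF-β1. Of 9 tubular epithelium markers, 6 had a row and the 2 tested were lower, Cdh16 from 129.7 to 6.30 FPKM and Aqp1 from 10.4 to 0.169 FPKM, while Cdh1 did not exceed 0.123 FPKM. Without the filter Lrp2 was also lower, from 1.43 to 0.230 FPKM, and Krt18 was higher, from 0.279 to 1.57 FPKM (limma adjusted p = 0.00369 and 0.00143). That list summed to 125.2 to 160.5 FPKM in Control and to 7.54 to 9.27 FPKM with TGF-β1. Csf1r and Aqp1 reached a mean FPKM of 1 through their Control values alone, and 23.6% of all rows tested were lower. The 5 podocyte markers, of which 3 were tested and all of these lower, summed to 19.7 to 24.9 FPKM in Control and 12.6 to 13.7 FPKM with TGF-β1. The 5 endothelial markers stayed under 1 FPKM in sum. The mesangial, macrophage, tubular and podocyte sums differed between the same libraries as C3 and Clu, while the endothelial sums of the groups overlapped. Cd14 made up most of the macrophage sum in Control, and Cdh16 most of the tubular sum. The part of these lists in the decrease of the complement genes was not tested.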

How the data were processed

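Total RNA of primary mouse mesangial cells, 3 Control and 3 TGF-β1 samples, was sequenced on an Illumina instrument. The strand setting is not given in the sources used here. The authors discarded reads of low quality, aligned the others to mm9 with TopHat (the submitters' processing notes name TopHat2 2.0.11), estimated expression with Cufflinks, and deposited FPKM values, 1 column per library. Columns were matched to groups by the sample labels, and 0 were left unmatched. Whether a row holds a gene or only the transcript it names is not stated. No counts were used, so the authors' count test was replaced.

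Here limma 3.58.1 (R 4.3.3) was run on log2(FPKM + 1) with a two-sided test and a mean-variance trend, with Benjamini-Hochberg adjustment over the 11898 rows whose mean FPKM reached 1. Genes under that filter came from the same fit to all 19730 rows. An adjusted p under 0.05 was called changed. The code was tested on simulated data. Depth was recovered from low FPKM values, of which 99.4% to 99.8% per library were whole multiples of 1 fragment within 0.1 (20.4% to 23.6% when jittered), taking fragments as 200 nt long. Fragment numbers are therefore approximate. FPKM does not keep the counts that the estimate used, so no count model was run.

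The 9 genes and all lists were chosen with earlier results of these data known. Genes named besides the 9 were complement genes whose mean FPKM reached 1 or that were called without the filter, the 5 largest changes among called acute-phase and inducer genes, the 5 rows most correlated with C3 and with Clu, and near copies of the 9 genes. One result is not reported here. Positions are from GENCODE M1 (mm9) and promoters from RefSeq (GRCm38.p6). The alternatives were other pseudocounts, filters, scalings and thresholds, a replicate block, replicates 1 and 3 alone, and leaving out each library. Python 3.11.15, pandas 2.3.3, numpy 2.4.6, scipy 1.17.1 and matplotlib 3.10.9 were used.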

Additional observations from a re-analysis of the deposited data

How the results depend on the processing

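The decreases of C3, C4b, C1ra, C1s, Serping1 and Clu kept their direction and their call in all 17 alternatives. Where a gene fell below a filter, its value came from the fit without a filter. With a mean FPKM of at least 3 this held for C4b, C1ra and Serping1, so that setting did not test them anew. Dropping the filter likewise left C4b and Serping1 as in the main test. On this rule, the count of the 9 genes called lower was 6, or 7 where Cd59a was also called. The sizes of their log2 changes moved with the pseudocount (0.1 or 5 in place of 1), from -7.769 to -3.063 for C3, -3.895 to -0.3567 for C4b, -2.796 to -0.778 for C1ra, -3.598 to -1.917 for C1s, -3.322 to -0.2408 for Serping1 and -6.473 to -5.455 for Clu. Cfb changed sign without ever being called: its log2 change was -0.002717 with a pseudocount of 5, -0.04339 with scaling to the protein-coding sum, -0.0381 with replicates 1 and 3 alone, and -0.193 to 0.41 when single libraries were left out (-0.07619 without Control replicate 2, -0.193 without Control replicate 3 and -0.08429 without TGF-β1 replicate 1). The call of Cd59a was gained with scaling to the protein-coding sum (-0.4074) and without TGF-β1 replicate 2 (-0.3017), within a range of -0.3017 to -0.17 over single libraries left out. Cd55 was called with quantile normalization (0.4706), which made 1 of the 9 genes higher. Among other complement genes, 5 were lower with a mean FPKM of at least 1, 9 without a filter and 2 with a mean of at least 3, and 3 were higher at an adjusted p under 0.05 but 1 under 0.01. With the 9 genes included, those lower numbered 9, 15 and 5, counting only genes that passed the filter in use. Genes of the acute-phase list called higher numbered 1, but 2 without a filter, and 1 to 2 with single libraries left out (2 without each Control library). Over all tested rows, 2810 were lower at 0.05 and 1727 at 0.01. Scaling to the protein-coding sum gave 2014 higher and 3956 lower rows against 2911 and 2810. Among 408 values for the 24 other named genes, 381 kept their direction and their call, though sizes also moved with the pseudocount, and 27 lost a call. The causes were not tested.

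The replicate numbers are shared between the groups, but the same-numbered libraries deviated together only weakly (r = 0.0921, 0.232 and 0.0853). Control replicate 1 correlated best with TGF-β1 replicate 3 (r = 0.117), while the other pairs with different numbers had r from -0.194 to -0.0160. These values do not settle whether the numbers mark pairs, and the main test did not take them as pairs. With a replicate block, Cd55 was called higher (log2 change 0.3552, limma adjusted p = 0.0389), which made 1 of the 9 genes higher, Colec11 lost its call, and no other call among the 9 genes differed. At this depth the TGF-β1 level of C3 rests on 12 fragments and that of Cd55 on 8 to 19 per library, and genes listed at 0 may have levels that were not detectable.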
